A study of Mus musculus with 23 samples.

Results

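The miR-297, miR-466, miR-467 and miR-669 miRNAs of the mouse form one family of near-repeat loci, and its members were taken by name. A deposited mature miRNA row belonged to the family when its name began with mir-297, mir-466, mir-467 or mir-669, followed by a letter, a hyphen or nothing more. This gave 30 of 903 mature rows. Together they held 25524 reads over 23 libraries, and 7 rows carried 96.1% of them.

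Most of these loci lie in one intronic cluster within Sfmbt2, a Polycomb group gene that is imprinted in the mouse placenta. The copies arose by repeated duplication in rodents, and their mature strands are rich in alternating U and G or alternating A and C. A miRNA finds its targets mainly through its seed, bases 2 to 8, so near-identical copies can have different seeds and reads from one copy can fit another.

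The libraries hold small RNA from retinas of mice at postnatal day 90, at 1 retina per library. Wild-type mice were C57B and untreated (2 libraries, counted as 2 mice). All other mice were heterozygous knock-ins, P23H+/- KI, whose rhodopsin gene carries the P23H change that causes misfolding and retinitis pigmentosa, so every injected group shares this allele with its uninjected control. They were untreated (uninjected, 3 mice), injected with saline (1 mouse), or given nanoparticles of DNA that carry a genomic rhodopsin gene, either the human one (human gRHO, 2 mice) or the mouse one (mouse gRho, 7 mice). The labels do not give the dose, the route or the age at injection, and they give the background strain only for the wild type.

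Depth was 5968388 to 16048954 mature miRNA reads per library and 6980992 to 25046363 per mouse. The 903 mature rows summed to 10.4% to 19.5% of those reads, and reads that the authors class as crossmapped stand apart from the mature ones (5.52% to 17.9% of miRNA reads, lowest in the WT mouse numbered 2), so family levels below are levels of what was assigned to a row. The photoreceptor miRNA mir-183 was present in every library at 417 to 7734 reads, and its neighbours mir-182 and mir-96 were present too. Neither they nor the neuronal mir-124 and mir-9 rows were at 0 in any library. Their levels still varied widely between libraries, as given below with the other cell type markers.

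The RefSeq table used for sequences (GRCm38.p6) holds 8 mature sequences of the family, printed 5′ to 3′ with the seed in capitals. They are shown because they make the shared repeat and the differing seeds visible for these 8. All of their loci lie outside Sfmbt2, so the seeds of the rows within it are not shown. Only miR-466q and miR-466k of these 8 have a row in the data.
miR-466q: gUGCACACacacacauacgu
miR-466k: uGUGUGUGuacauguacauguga
miR-669n: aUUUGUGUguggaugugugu
miR-467g: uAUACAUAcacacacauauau
miR-467h: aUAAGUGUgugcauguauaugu
miR-466j: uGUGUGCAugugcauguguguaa
miR-467f: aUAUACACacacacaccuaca
miR-466i-3p: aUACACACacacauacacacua
All 8 have different seeds. Each holds the letters UGUGUG (4 of 8) or ACACAC (4 of 8), searched as printed on the mature strand. Over all 1679 mature sequences of that table the shares were 1.67% and 0.655%, and 2.32% held either. The loci of both sequenced rows, miR-466q and miR-466k, lie on chromosome 3, outside Sfmbt2, and both rows were low, at a mean of 0.205 and 0.011 CPM over 15 mice. CPM here are reads per 1000000 mature miRNA reads of the same library or mouse, with no other scaling.

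The RefSeq annotation lists 81 loci of the family, 71 of them within Sfmbt2 on chromosome 2. Of the 30 rows, 29 matched a locus by name (mir-466c-3 did not), and 27 lie within Sfmbt2. Members of the miR-669 group held 57.2% of the family's reads in 13 rows, those of miR-467 held 32.4% in 3 rows, and those of miR-466 held 10.3% in 13 rows. The single miR-297 row, mir-297b, held 0.094%. The most duplicated loci contributed little: mir-467a has 10 loci and 0 rows among those analysed here, mir-669a has 12 loci and 1 row of 11 reads, and mir-466b has 8 loci and 1 row of 14 reads. Outside the mature class, the family had 32 unannotated reads of mir-297a-2 in 13 libraries and a few precursor reads (5 of mir-466d and 3 of mir-467b). How reads shared by several copies were assigned is not given.

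Levels also differed along the host gene. Numbered 5′ to 3′, loci 52 to 71 held 13 rows and 89.9% of the family's reads, loci 1 to 15 held 9 rows and 9.11%, and loci 16 to 51 held 5 rows and 0.627%. No row of that middle stretch of 36 loci exceeded a mean of 0.356 CPM. The 3 stretches were marked off after the values were seen, so they describe and do not test. Only 5 of the 36 middle loci have a row, and whether the assignment of shared reads has a part in these levels was not tested.

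**Figure D1:**
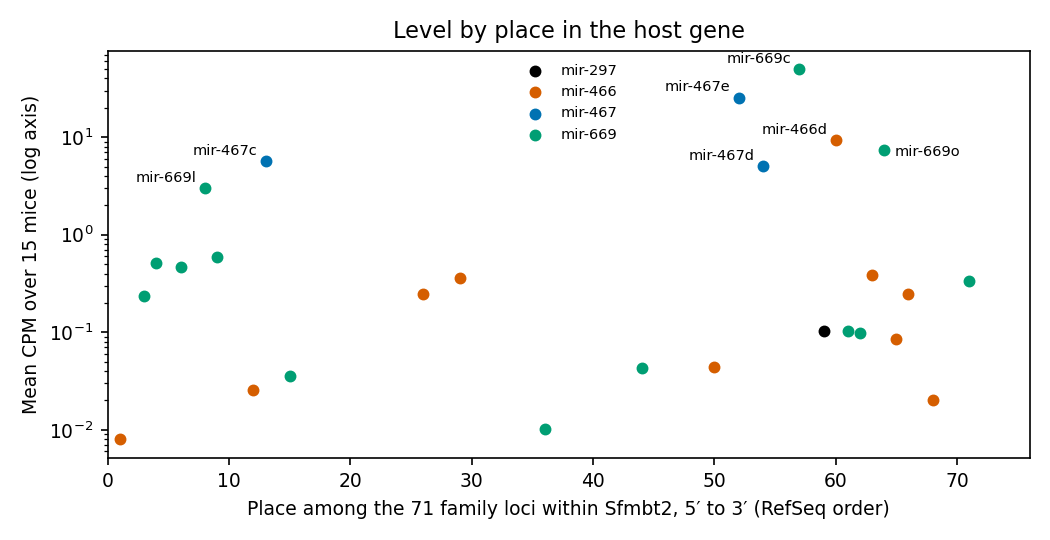
Mean level over 15 mice (CPM, log axis) of each family row within Sfmbt2, against the place of its locus among 71 family loci, 5′ to 3′, coloured by group name. The 7 labelled rows above 1 CPM stand at the start and near the end, and the middle stretch stays at or below 0.356 CPM.

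The family as a whole was a minor part of the retinal miRNA pool. Its summed level was 72.31 to 159.2 CPM per library, with a median of 108.6. Per mouse, the WT sums were 96.1 and 96.9 CPM. Uninjected mice had 107.7, 152.7 and 103.7 CPM, and the saline mouse had 115.6. The human gRHO mice had 100.05 and 105.2 CPM, and the mouse gRho mice ran from 75.29 over a median of 106.9 to 159.2. On this scale both WT sums lay within the mouse gRho range and below those of the uninjected mice. The means were 96.5 ± 0.56 (SD, n = 2), 121.4 ± 27.2 (n = 3), 102.6 ± 3.67 (n = 2) and 110.6 ± 27.9 (n = 7) for WT, uninjected, human gRHO and mouse gRho, in that order. That order did not hold on the scale of the tests, where depth is multiplied by TMM factors (trimmed mean of M values, 0.734 in WT mouse 2 and 0.897 to 1.26 in the others). There the sums were 99.68 and 132.1 in WT and 107.0, 129.0 and 82.29 in uninjected mice, so these groups overlapped, with means of 115.9 ± 22.9 (SD, n = 2) and 106.1 ± 23.4 (n = 3). The highest sums on the plain scale, 152.7 in the uninjected mouse numbered 2 and 159.2 in the mouse gRho mouse numbered 6, came with ribosomal RNA shares of 5.14% and 4.85% of aligned reads, against a median of 0.423% over libraries. The uninjected mouse numbered 3 had 3.41% and a sum of 103.7, the lowest of its group. Whether the ribosomal RNA share has a part in these sums was not tested.

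The 30 rows ran from a mean of 49.7 to one of 0.00799 CPM. Only 7 had a mean of at least 1 CPM: mir-669c at 49.7, mir-467e at 25.4, mir-466d at 9.38, mir-669o at 7.44, mir-467c at 5.68, mir-467d at 5.07 and mir-669l at 3.03. The row mir-669c ranked 79 among the 903 and mir-467e ranked 116. At the other end, 17 rows stayed under 10 reads in every library and 6 had fewer than 10 reads in all 23 libraries together. The median of the rows' mean levels was 0.239 CPM in the family and 0.337 CPM over all mature rows. A count of 0 in the shallowest library still allows up to 0.503 CPM (3 counts, counting error only), so a 0 in a low row does not show absence.

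**Figure D2:**
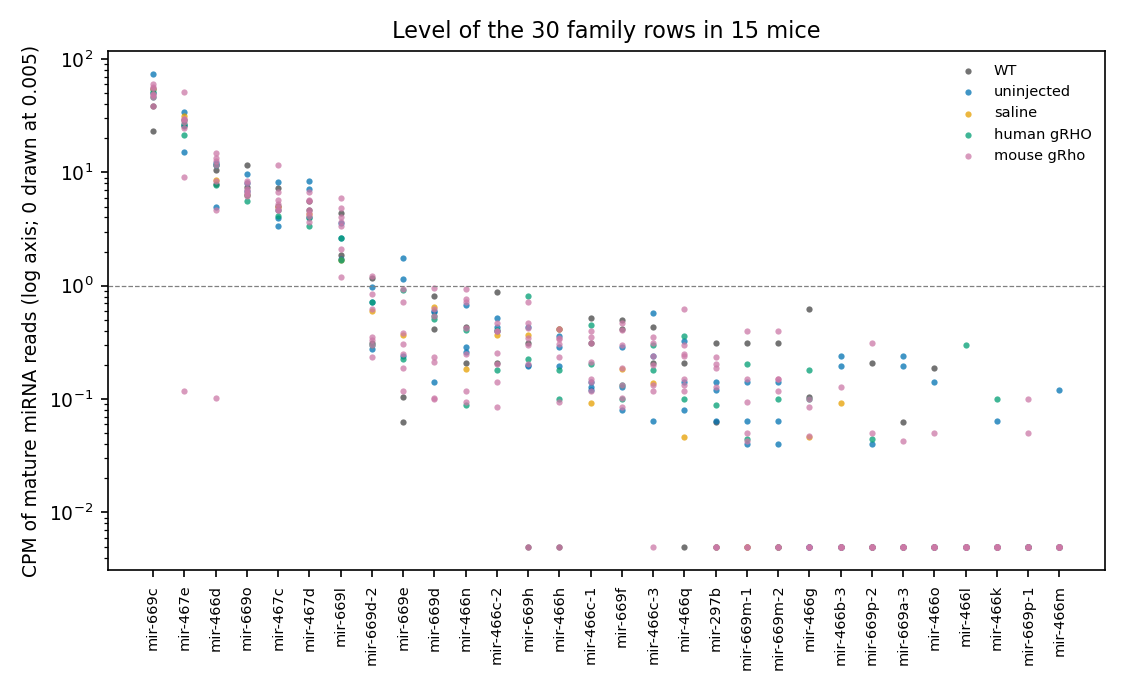
Level of each of the 30 family rows in each of 15 mice (CPM of mature miRNA reads, log scale), rows ordered by mean level, mice coloured by group, and 0 drawn at the foot of the axis. Values fall from mir-669c, at 23.2 to 73.2 CPM, to mir-466m, with 3 reads in 1 library.

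The leading row, mir-669c, had its lowest group mean in wild type, at 31.0 ± 11 CPM (SD, n = 2) against 59.2 ± 12 in uninjected (n = 3), 48.6 ± 3.8 in human gRHO (n = 2) and 50.6 ± 7.4 in mouse gRho mice (n = 7). Its level was 38.8 and 23.2 CPM in the WT mice and 54.6, 73.2 and 49.9 CPM in the uninjected P23H mice. It was 54.8 CPM in the saline mouse, where counting error alone gives a Wilson interval of 51.8 to 58.0 (95%, 1180 reads). The human gRHO mice had 45.9 and 51.3 CPM, and the mouse gRho mice had 38.7, 49.2 and 60.8 as lowest, median and highest. So 12 of 13 P23H mice lay above both WT mice, and the lowest mouse gRho mouse lay just under the higher WT mouse. The share of all rows with such a count was not taken, so the count does not set mir-669c apart. P23H groups overlapped one another, except that the saline mouse lay above both human gRHO mice. On the scale of the fit, with its TMM factors, the WT levels were 40.2 and 31.6 and the uninjected levels 54.3, 61.8 and 39.6, so these groups overlapped. Its share of the family's reads was 40.3% and 23.9% in WT and 47.9% to 50.7% in uninjected mice.

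The row mir-669o went the other way. It stood at 7.46 and 11.7 CPM in WT and at 8.1, 9.6 and 6.92 CPM in uninjected mice. It was 6.32 CPM in the saline mouse, 6.36 and 5.55 in human gRHO mice, and 6.24, 6.81 and 8.44 as lowest, median and highest of the mouse gRho mice. In 9 of 13 P23H mice it was below both WT mice, and no P23H mouse exceeded the higher of them. For this count, too, the share of all rows was not taken. Most of the gap to WT rested on WT mouse 2.

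In the 3 other tested rows above 1 CPM, P23H mice lay both above and below the WT pair on the plain scale. Below both WT mice were 8 of 13 for mir-467c, 8 for mir-467d and 4 for mir-669l, and above both were 2, 5 and 2. The row mir-467c had 5.08 and 7.23 CPM in WT, 3.95, 8.17 and 3.36 in uninjected, 4.92 in saline, 4.7 and 4.14 in human gRHO, and 4.65, 5.27 and 11.7 as lowest, median and highest in mouse gRho mice. For mir-467d the levels were 4.67 and 5.55 CPM in WT, 4.03, 7.16 and 8.34 in uninjected, 4.32 in saline, 3.36 and 3.94 in human gRHO, and 3.62, 4.65 and 6.7 in mouse gRho mice. Both human gRHO mice lay below every WT and uninjected mouse for mir-467d, and 1 of them lay within the mouse gRho range. Shares of all rows with such orders or counts were not taken. The counts above both WT mice did not hold on the scale of the fit, with its TMM factors. There mir-467d had 4.84 and 7.56 in WT and at most 6.62 in P23H mice. For mir-669l the WT levels were 1.94 and 6.03, and the highest P23H level was 5.62. For mir-467c they were 5.27 and 9.85, and mouse gRho mouse 6 exceeded both at 11.1. The row mir-669l had 1.87 and 4.42 CPM in WT, 1.72, 3.58 and 2.65 in uninjected, 1.67 in saline, 1.7 and 2.62 in human gRHO, and 1.19, 3.65 and 5.89 in mouse gRho mice.

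**Figure D3:**
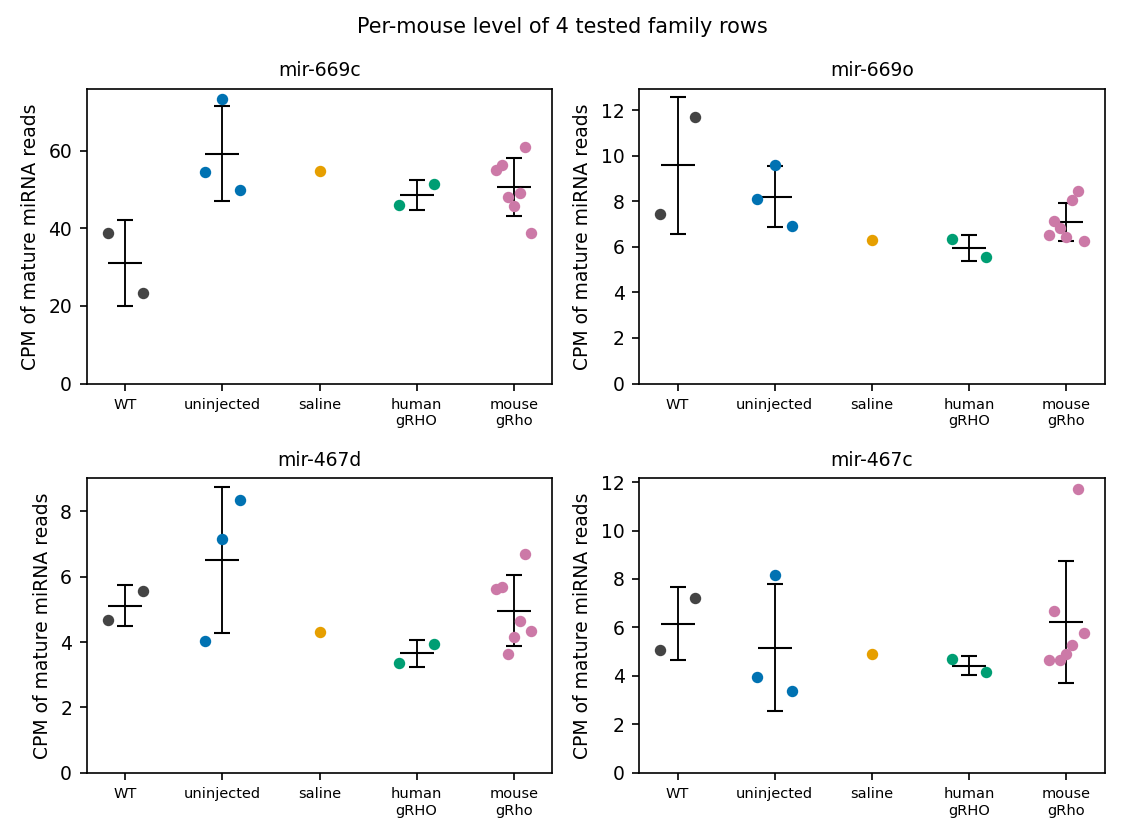
Per-mouse level (CPM of mature miRNA reads, axes from 0) of mir-669c, mir-669o, mir-467d and mir-467c in the 5 groups, with points for mice and bars for the mean and SD where a group has more than 1 mouse. The 2 WT mice lie at 23.2 and 38.8 CPM for mir-669c, and mir-467c has 1 mouse gRho mouse at 11.7 CPM.

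Of the 7 leading rows, 4 dropped nearly to 0 in single libraries. The row mir-467e stood at 1 read in 3 libraries (left eyes of uninjected mouse 3 and of mouse gRho mice 4 and 7) and at 210 to 463 reads in the other 20. The row mir-466d stood at 1 to 4 reads in 3 other libraries (left eyes of uninjected mouse 1 and mouse gRho mouse 3, right eye of mouse gRho mouse 5) and at 63 to 210 in the other 20. So mir-467e and mir-466d dropped in different libraries.

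Both rows met the definition of a two-level row (among rows reaching 30 reads, a gap of 3.5 or more in sorted log2(CPM + 0.5), or a gap of 2 or more that leaves 2 or more libraries above and below it) and were set aside from the tests. In all, 65 of 337 rows reaching 30 reads met it, as did 2 of the 7 family rows reaching 30 reads. With rows too low to qualify included, the shares were 6.67% of the 30 family rows and 7.2% of all mature rows. The smaller drops of mir-467c, at 1 read in 1 library against 38 to 116 in the others, and of mir-669l, at 1 to 2 reads in 3 libraries against 12 to 71, did not meet it. The drop of mir-467c fell in a library where mir-467e was also low, and 2 of the 3 drops of mir-669l fell in libraries where mir-466d or mir-467e was low. No drop occurred in WT or human gRHO libraries. The row mir-669c had no such drop, at 300 to 833 reads in all 23 libraries.

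Per mouse, mir-467e had 25.8 and 28.8 CPM in WT, 26.2, 33.8 and 15.1 in uninjected, 31.5 in saline, 26.6 and 21.2 in human gRHO, and 0.118, 28.1 and 51.6 as lowest, median and highest in mouse gRho mice. Without the low libraries its group means were 27.3, 30.2, 31.5, 23.9 and 30.6 CPM in the order WT, uninjected, saline, then human and mouse gene. The row mir-466d had 7.88 and 10.4 CPM in WT, 4.99, 12.0 and 11.7 in uninjected, 8.54 in saline, 7.79 and 11.6 in human gRHO, and 0.103, 11.7 and 14.7 in mouse gRho mice. Without its low libraries the means were 9.14, 11.1, 8.54, 9.7 and 11.8 CPM in the same order. Apart from the drops, the groups with more than 1 mouse overlapped one another in both rows. The single saline mouse lay above the WT and human gRHO mice for mir-467e. For mir-466d it lay below the uninjected mice, at 9.7 to 12.0 CPM without the low library.

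**Figure D4:**
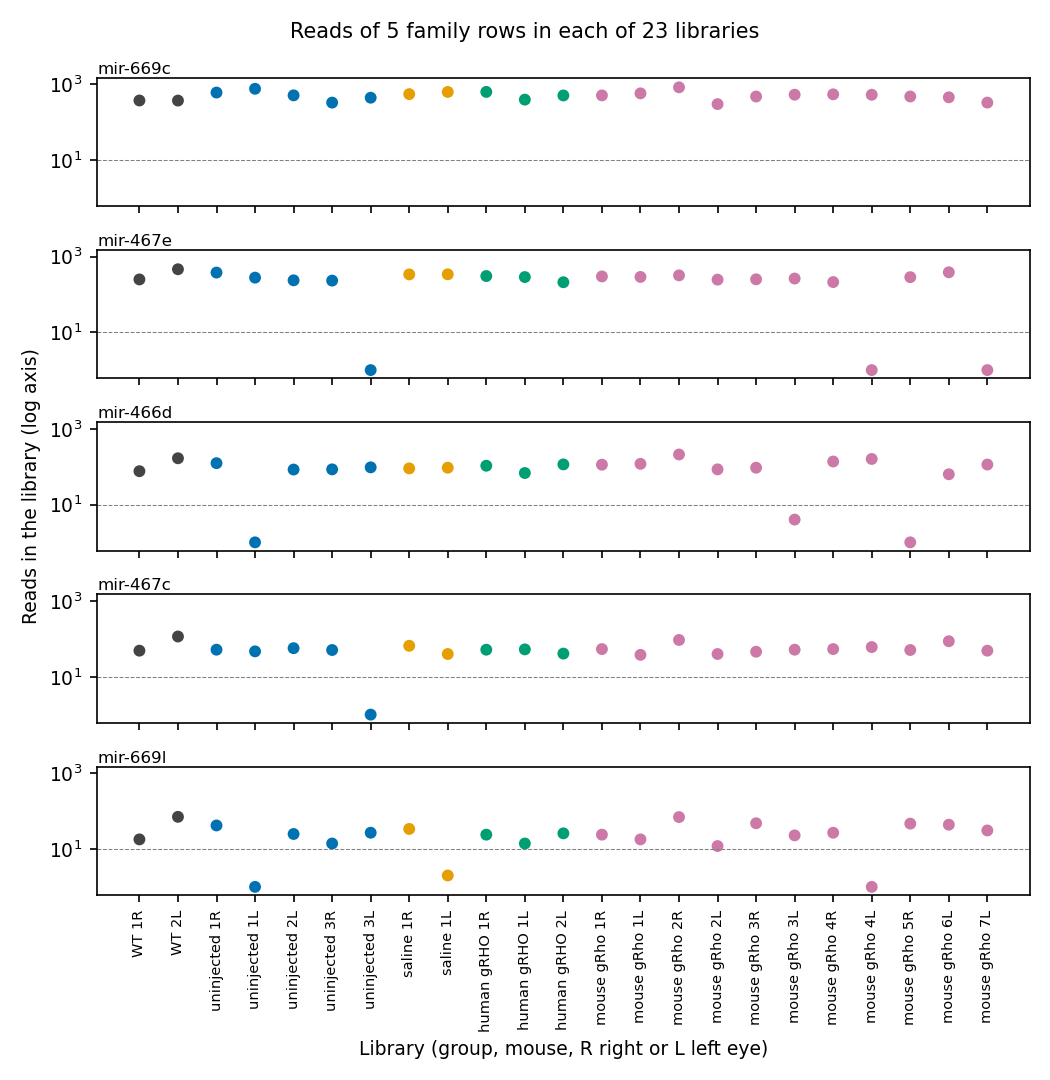
Reads of the leading family rows in each of 23 libraries (log axis). The rows mir-467e and mir-466d fall to 1 to 4 reads in 3 libraries each, in different libraries, while mir-669c stays between 300 and 833 reads.

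Eyes of the same mouse differed too. In the 8 mice with both retinas, the log2 difference of mir-669c, right minus left, ran from -0.39 to 0.66 with a median size of 0.32, and the SD of these mice's summed log2 levels was 0.12. For mir-669o it ran from -0.51 to 0.71. The row mir-669l was higher in the right eye in 7 of 8 mice, with a median of 1.17, and its drops all lie in left eyes. These are descriptions, with no test.

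The first comparison asked how uninjected P23H retinas differ from wild type. Of the 30 family rows, 20 did not reach 10 counts in 3 mice, 2 were two-level, and 8 were tested (26.7%, against 42.3% of all mature rows). None of the 8 tested rows passed (edgeR quasi-likelihood test, adjusted p under 0.05 over 382 rows; DESeq2 also called 0 of 8), where 1.57% of all tested rows did. At an unadjusted p under 0.05 there were 2 members, mir-669o and mir-669c, against 16.5% of all rows. The log2 fold change was -0.72 (SE 0.33) for mir-669o with an edgeR adjusted p of 0.282. It was 0.53 (SE 0.25) for mir-669c, with an edgeR adjusted p of 0.287. For mir-467c it was -0.77 (SE 0.45), with an edgeR adjusted p of 0.411.

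Of the 8, 1 had a positive and 7 a negative fold change, while 45.8% of all tested rows were positive. The family median was -0.75 against -0.09 for all rows. The family's other 22 rows are not in this median. Scaled to total aligned reads, the median of all rows moved by 0.23 to 0.14, and the split became 3 positive and 5 negative, with a family median of -0.47. Without WT mouse 1 the remaining WT mouse has no replicate and is assumed to vary like the other groups. In that fit mir-669o passed (log2 -1.04, SE 0.30, edgeR adjusted p = 0.0283), and without WT mouse 2 its fold change was -0.02. The WT group has 2 mice, so this row's value turns on which of them is kept. Over all rows, the 6 calls became 60 without WT mouse 1, and 0 without WT mouse 2 or without any 1 uninjected mouse.

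Of the cell type marker sums, those of pigment epithelium and Mueller glia and those of muscle lay outside the WT range in uninjected libraries. The muscle sums of the other P23H groups overlapped WT. Photoreceptor, neuron, leukocyte, red blood cell, surface epithelium and endothelial marker sums overlapped between uninjected and WT libraries. Photoreceptor sums were 306 to 1100 CPM in WT, 198 to 805 in uninjected, 691 to 769 in saline and 699 to 821 in human gRHO libraries. In mouse gRho libraries they ran from 52.9 to 943. Neuron sums were 6140 to 9310 CPM in WT, 4570 to 10400 in uninjected, 10500 to 13500 in saline and 8890 to 10200 in human gRHO. In mouse gRho they ran from 2610 to 12300. Pigment epithelium and Mueller glia miRNAs, 2 of 2 found, summed to 53.7 to 99.6 CPM in WT libraries, 115 to 298 in uninjected, 127 to 169 in saline, 97.5 to 157 in human gRHO and 105 to 192 in mouse gRho. Muscle miRNAs, 5 of 5 found, summed to 46100 to 92800 CPM in WT, 860 to 39400 in uninjected, 10600 to 57200 in saline, 712 to 89700 in human gRHO and 653 to 76400 in mouse gRho libraries, with 3 of the 5 rows two-level. Their part in the family's values was not tested. In bulk retina, fewer cells of a type and less RNA per cell cannot be told apart, and here the groups cannot be told apart from the leading number of the sample titles, which may be a cage.

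Mouse gRho retinas were next set beside wild type. This comparison shares the WT mice with the one above. Again 0 of 8 members passed (edgeR quasi-likelihood; DESeq2 0), where 3.14% of all rows did, and 2 had an unadjusted p under 0.05 against 18.1% of all rows. The log2 fold change was -0.75 (SE 0.28) for mir-669o, with an edgeR adjusted p of 0.154. It was 0.49 (SE 0.22) for mir-669c, with an edgeR adjusted p of 0.268, and -0.88 (SE 0.71) for mir-669d-2, with an edgeR adjusted p of 0.486. The split was 2 positive and 6 negative, while 49.2% of all tested rows were positive. The family median was -0.32 against -0.01 for all rows. With total aligned reads the split became 3 and 5, and the median of all rows moved by 0.14. In the fit without WT mouse 1, under the same assumption, mir-669o passed here too (log2 -1.11, SE 0.27, edgeR adjusted p = 0.00899), and without WT mouse 2 it was at -0.08. The 12 calls over all rows became 64 and 0 in the same fits.

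The low row mir-669e was the 1 family row in which all 13 P23H mice lay above both WT mice. It had 1 read in each WT library (0.104 and 0.0623 CPM), and 1 to 27 reads in P23H mice (0.118 to 1.75 CPM). The lowest of these, mouse gRho mouse 7, also had 1 read, so there the order rests on depth alone. Over all 903 mature rows, 2.88% had every P23H mouse above both WT mice and 0.775% had every one below. The row has at most 26 reads in a library and did not pass the read filter. In a fit with no filter its log2 fold change was 3.28 (SE 1.20) in uninjected against WT, with an edgeR adjusted p of 0.203, and 26 of the 41 uninjected reads came from the right eye of mouse 3. In mouse gRho against WT it was 2.06 (SE 1.16), with an edgeR adjusted p of 0.495. It was singled out after its values were seen.

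Treatment was compared with the uninjected P23H control, whose 3 mice serve all comparisons with it. In mouse gRho mice, 0 of 8 members passed in edgeR's quasi-likelihood test (DESeq2 0), and 0.0% of all rows did. An unadjusted p under 0.05 was found for 0 members and 4.71% of all rows. The log2 fold changes with the smallest p were 0.66 (SE 0.47, edgeR adjusted p = 0.913) for mir-669l, 0.47 (SE 0.36, edgeR adjusted p = 0.913) for mir-467c and -0.17 (SE 0.27, edgeR adjusted p = 0.982) for mir-467d. Without the 4 libraries in which either of the first 2 rows stood at 1 or 2 reads, mir-467c was at 0.22 (SE 0.34) and mir-669l at 0.56 (SE 0.43). For mir-669c the fold change was -0.04 (SE 0.18). Of the 8, 3 were positive and 5 negative, while 57.6% of all tested rows were positive. The family median was -0.03 against 0.08 for all rows. Total aligned reads moved the median of all rows by -0.11.

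In human gRHO mice, 0 of 8 members passed in edgeR's test (DESeq2 0), against 0.0% of all rows, and 0 had an unadjusted p under 0.05, against 2.62%. The row mir-467d had the smallest p, at -0.62 (SE 0.37, edgeR adjusted p = 0.93), followed by mir-669o at -0.28 (SE 0.33) and mir-466n at -0.85 (SE 1.06), both with an edgeR adjusted p of 0.93. Without the libraries rich in ribosomal RNA (at least 3% of aligned reads) mir-467d was at -0.10. That setting leaves only uninjected mouse 1 as control. Of the 8, 1 was positive and 7 were negative, while 50.8% of all tested rows were positive. The family median was -0.09 against 0.01 for all rows.

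The 2 rhodopsin genes were compared with each other. No member passed in edgeR's test (0 of 8, DESeq2 0), against 0.0% of all rows, and 0 had an unadjusted p under 0.05, against 2.88%. The row mir-467d was at -0.44 (SE 0.33, edgeR adjusted p = 0.997), mir-669l at -0.74 (SE 0.55) and mir-467c at -0.49 (SE 0.42), human minus mouse. Of the 8, 1 was positive and 7 were negative, while 44.5% of all tested rows were positive. The family median was -0.35 against -0.04 for all rows. With total aligned reads the split was 2 and 6. With 2 human gRHO mice these values do not show that the genes act alike.

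Saline against uninjected had 1 saline mouse, so its test assumes that this mouse varies like those of the other groups. No member passed in edgeR's test (0 of 8, DESeq2 0), against 0.0% of all rows, and 0 had an unadjusted p under 0.05, against 3.4%. The values with the smallest p were -0.96 (SE 1.30, edgeR adjusted p = 0.91) for mir-466n, 0.71 (SE 1.07) for mir-669d and 0.18 (SE 0.30) for mir-669c. The split was 4 and 4, while 49.7% of all tested rows were positive. The family median of 0.05 turned to -0.07 with total aligned reads, a scale that moved the median of all rows by -0.12.

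**Figure D5:**
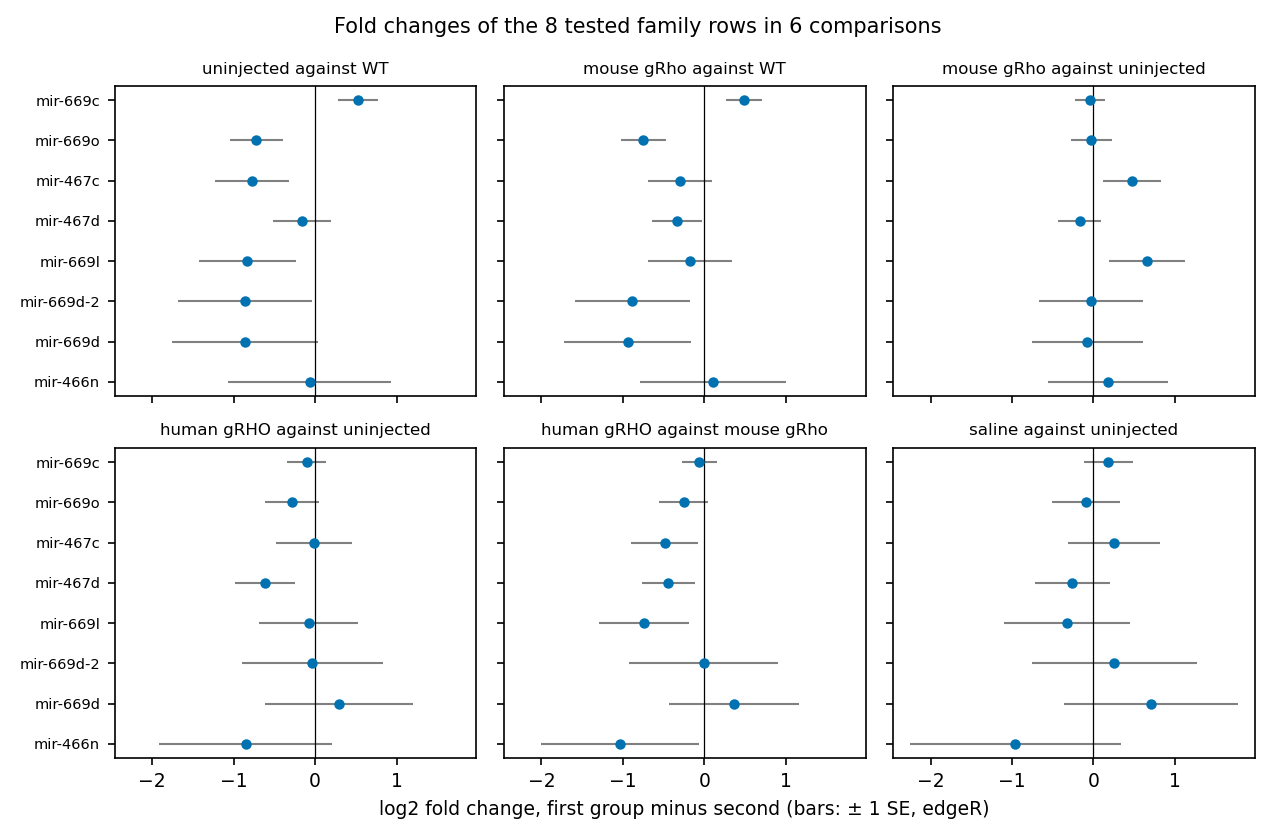
Log2 fold change with its standard error of the 8 tested family rows in the 6 comparisons (edgeR, all 5 groups in 1 fit). For mir-669c the values in the comparisons with WT are 0.53 and 0.49 and for mir-669o -0.72 and -0.75, and no adjusted p is below 0.05.

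Rows of numbered copies mostly differed in their reads. The exception was mir-669m-1 with mir-669m-2, which held the same number in 15 of 23 libraries, 6 of them above 0, at no more than 3 reads. The mir-669d pair was equal in 3 libraries and the mir-466c pairs in 2 to 4, while mir-669p-1 and mir-669p-2 were equal in 17 libraries, 0 of them above 0. Whether copies share reads cannot be read from these counts. Summed over copies, mir-669d was at -0.77 (SE 0.70, edgeR adjusted p = 0.588) and mir-466c at -0.99 (SE 0.61, edgeR adjusted p = 0.461) in uninjected against WT. In mouse gRho against WT the summed mir-466c was at -1.14 (SE 0.51, edgeR adjusted p = 0.277).

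Other miRNAs were set beside the family from 1 list chosen by locus and 1 chosen by sequence. Of 54 miRNAs of other imprinted loci, mainly the Dlk1-Dio3 region, 41 were tested, and 1 fell in uninjected against WT (mir-381) and 2 fell in mouse gRho against WT (mir-335 and mir-381), where 1.57% and 3.14% of all rows passed. No row of either comparison passed without WT mouse 2. The log2 fold changes in mouse gRho against WT were -1.71 (SE 0.33, edgeR adjusted p = 0.00684) for mir-335 and -3.86 (SE 0.64, edgeR adjusted p = 0.00567) for mir-381. Their median in uninjected against WT was -0.39, with 7 positive and 34 negative, beside the family's -0.75. Of 22 other rows whose RefSeq mature sequence holds UGUGUG or ACACAC, 8 were tested and 0 passed in edgeR's test in each of the 6 comparisons (DESeq2 0), with an unadjusted p under 0.05 in 1 row in uninjected against WT and in 0 elsewhere. Their median in uninjected against WT was -0.12. Rows name no arm, and the repeat may lie on 1 arm only, so the reads of such a row need not hold it.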

How the data were processed

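Values are raw counts of reads, deposited as a matrix of miRNA locus rows by library and as a table of alignment classes. DESeq2 is named in the submitters' processing notes. The aligner, the counter, the annotation and the build were not given in the sources used here, and coordinates are left out. Rows name no arm. Titles were read as cage, ear mark and eye, an inference, and libraries differing only in eye were summed to 15 mice, with both WT titles counted as separate mice. If that is wrong, p-values measure only the spread between these sums, which may be technical.

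The test was edgeR's robust quasi-likelihood test (version 4.0.16, R 4.3.3) in 1 fit of all 5 groups, with TMM factors on mature miRNA reads. Adjustment was by Benjamini-Hochberg over the 382 rows that reached 10 counts in 3 or more mice and were not two-level. DESeq2 1.42.0, other scales, filters and left-out mice were alternatives. Named rows are those with a mean of at least 1 CPM, those past the threshold, two-level rows, and the 3 smallest p per comparison. The fitting script was tested on simulated data. Members, lists and tests were chosen with earlier results of these data known.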

Additional observations from a re-analysis of the deposited data

Results flagged for a closer look

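The level of mir-467c in the mouse gRho mouse numbered 6 was 11.7 CPM, where the other 6 mice of that group had 4.65 to 6.67. Its gap to the next mouse was 0.712 of the group's range, above the critical value of 0.568 for 7 samples. The same mouse has 4.85% ribosomal RNA and the highest summed family level, 159.2 CPM. Over the 11 groups of values looked at in this way, chance alone marks about 1 in 20.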

How the results depend on the processing

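No paired analysis was possible because the labels give no replicate numbers shared across groups. Of 267 recomputed fold changes of named rows, 262 kept their direction and side of the threshold, 3 reversed and 2 passed the threshold; the cause was not tested. The first reversed value was 0.22 for mir-467d in mouse gRho against uninjected without the libraries rich in ribosomal RNA (chosen after seeing the data). That setting leaves only uninjected mouse 1 as control. With 1 mouse left out, mir-669d-2 reversed in mouse gRho against WT (-1.53 to 0.75, highest without WT mouse 2). So did mir-466n in human gRHO against uninjected (-2.09 to 0.13, highest without human gRHO mouse 1). Both that passed were mir-669o against WT without WT mouse 1, so member calls ran from 0 to 1 there when a mouse was left out. For mir-669c against WT the fold change stayed positive, at 0.36 to 0.84 in uninjected and 0.38 to 0.74 in mouse gRho mice.

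Calls over all rows moved more. The libraries poorest in retinal miRNAs were taken as the left eye of uninjected mouse 2 and the right eye of mouse gRho mouse 1. The former is the only library of its mouse, so leaving it out removes that control mouse. Leaving out the libraries rich in ribosomal RNA removes uninjected mice 2 and 3. Uninjected mouse 1 then stands alone in its group and is assumed to vary like the others. In uninjected against WT the 6 became 11 with DESeq2, 11 with no filter, 1 with two-level rows kept, 0 without the libraries poorest in retinal miRNAs, 0 without those rich in ribosomal RNA and 0 to 60 with a mouse left out (60 without WT mouse 1, where the lone WT mouse is assumed to vary like the others). In mouse gRho against WT the 12 became 7 without the libraries rich in ribosomal RNA and 0 to 64 with a mouse left out (64 without WT mouse 1, 0 without WT mouse 2). Mouse gRho against uninjected gave 1 with two-level rows kept and 0 to 1 with a mouse left out. Human gRHO against mouse gRho gave 0 to 1 with a mouse left out, and saline against uninjected gave 1 without the 4 libraries in which mir-467c or mir-669l stood at 1 or 2 reads. Per 1000000 reads of the mature rows themselves, the summed level was 643.3 in WT, 941.1 in uninjected, 791.5 in saline, 691.7 in human gRHO and 831.6 in mouse gRho mice. Without the two-level members it was 60.02, 86.79, 75.6, 69.05 and 76.56 CPM in the same order. With depth multiplied by TMM factors (chosen after seeing the data) it was 115.9, 106.1, 124.0, 102.0 and 109.6. Depth limits rows under about 0.5 CPM.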
